A study of Caenorhabditis elegans with 6 samples.

Results

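Long intergenic noncoding RNAs (lincRNAs) were taken as all genes to which the deposited tables give the class lincRNA, which are 169 of 45510 genes. Small RNAs of Caenorhabditis elegans L3 larvae had been sequenced in 6 libraries, 1 per group. NRDE-3 immunoprecipitates (IP) came from larvae with the allele susi-2(ust49), from larvae with susi-3(ust51) and from a control with neither, and total small RNA came from the same 3 genotypes. All 3 genotypes, the control included, carry eri-1(mg366) and GFP::NRDE-3, a tagged protein that was pulled down with anti-FLAG antibody, and all larvae were whole animals labelled 15 °C, from strains maintained at 20 °C before the experiment. The labels name neither the promoter of the fusion protein nor the lesions of the susi alleles nor how many pooled animals went into a library, and no IP from animals without the tag was analysed here. With 1 library per group no difference has a replicate check. Intervals are at 95% and cover counting error alone, not the spread between samples. PCR copies could not be told from separate molecules, so the intervals may be too narrow even for counting error.

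A lincRNA is a transcript without a recognised open reading frame that lies apart from protein-coding genes. In worms, RNA-dependent RNA polymerases copy targeted transcripts, coding or not, into secondary siRNAs that are antisense to the template. Worm Argonautes carry these siRNAs, and NRDE-3 is the Argonaute that takes them into the nuclei of somatic cells, where it acts on transcripts still being made. The eri-1 gene encodes an exonuclease needed for a set of endogenous primary siRNAs, and its loss empties NRDE-3 of the siRNAs that descend from them. Antisense counts on a lincRNA are therefore the measure nearest to siRNAs against it, and sense counts hold fragments of the transcript itself. Read lengths are not in the tables, so siRNAs could not be told from other antisense fragments. No function is given here for single lincRNAs.

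The 169 members were matched by name to RefSeq (WBcel235), where all 169 have the type lncRNA. In that annotation, which gives no strand here, 65 of them overlap another gene and 104 overlap none, so that the word intergenic does not hold for the 65 there. Total counts per library lay between 9122066 and 10755494, of which 10.75% to 26.0% were antisense, and 1 count was 0.0930 to 0.110 CPM (the count divided by the library's total and scaled to 1000000). The rRNA class held 58.4% to 64.9% of an IP and 31.7% to 37.5% of a total library. Counts on overlapping genes may come from the same reads, and counts were not corrected for length, so the members were compared between libraries and not with each other. Since larvae were whole, fewer cells of a type and less RNA per cell cannot be told apart.

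Most members were barely covered. Of the 169, 108 had fewer than 10 antisense counts in each library, 43 had at least 50 over the 6 libraries, and 4 had no count on either strand anywhere. Antisense counts summed over the class were 13902 in the susi-2 IP, 16493 in the susi-3 IP and 2819 in the control IP, or 1524, 1735 and 262 CPM. In total small RNA they were 8775 in susi-2, 16523 in susi-3 and 27606 in the control, or 838, 1679 and 2626 CPM. The class was thus lower in the total RNA of both mutants, at 0.319 of the control share in susi-2 (0.312 to 0.327) and 0.639 in susi-3 (0.627 to 0.652), and higher in both mutant IPs, at 5.81-fold (5.58 to 6.06) and 6.62-fold (6.36 to 6.89). Scaled by the trimmed mean of M-values (TMM), which centres on the bulk of genes, these 4 ratios were 0.517, 0.987, 2.73 and 9.09. The sums rest on few genes. The 10 members with most counts held 82.9% to 97.1% of them in each library.

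A different member led in each kind of library. In the IPs of both mutants linc-133 led, with 65.7% of the antisense counts of the class in susi-2 and 91.0% in susi-3. It had 11.03% in the control IP, where linc-22 led with 27.9%. In total small RNA linc-29 led, with 41.9% in susi-2, 61.1% in susi-3 and 63.4% in the control.

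**Figure D1:**
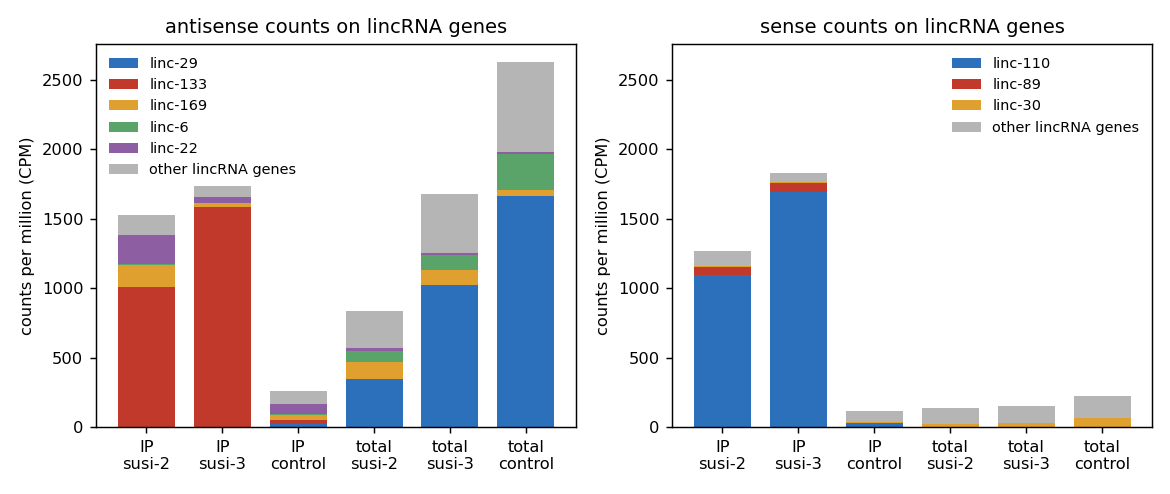
Stacked bars give the CPM of antisense counts (left) and sense counts (right) summed over the 169 lincRNA genes in each of the 6 libraries, with the leading members in colours that each panel has its own legend for and the others in grey. The mutant IP bars are mostly linc-133 on the antisense side and linc-110 on the sense side, and the total small RNA bars hold linc-29, which has 1664 CPM in the control.

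The gene linc-133 (T09A5.23) was seen almost exclusively in the IPs. Its antisense counts were 9130 in the susi-2 IP, 15015 in the susi-3 IP and 311 in the control IP, against 1, 1 and 0 in the matching total libraries. Both mutant IPs stood far above the control IP, and total small RNA was at or near 0 in each genotype. The share was 34.6-fold that of the control IP in susi-2 (30.9 to 38.9), or 16.3-fold with TMM scaling, and 54.6-fold in susi-3 (48.8 to 61.3). Relative to total RNA it was 10480.2-fold in susi-2 (1881 to 413990) and 15544-fold in susi-3 (2789 to 614008). In the control it was 101-fold with the 0 of the total library taken at 3 counts, and the lower interval limit was 81.9-fold. Sense counts on linc-133 were 4, 9 and 7 in the IPs of susi-2, susi-3 and the control and at most 1 in total RNA.

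Counts of nearly the same size stood under other names. In RefSeq, linc-133 overlaps linc-110 (T09A5.22), also a member, and the ncRNA gene T09A5.18. Sense counts on linc-110 were 9993 in the susi-2 IP, 16112 in the susi-3 IP and 313 in the control IP, and 12, 7 and 11 in the total libraries. Sense counts on T09A5.18 were 10089, 15926 and 237 in the IPs of susi-2, susi-3 and the control, and 0, 0 and 1 in total RNA. The antisense count of linc-133 was thus 91.4%, 93.2% and 99.4% of the sense count of linc-110 in the 3 IPs. Set against the sense count of T09A5.18 it was 90.5% in susi-2, 94.3% in susi-3 and 131% in the control, where the sizes were less alike. The opposite strand was nearly empty, with 12, 11 and 2 antisense counts on linc-110 and none on T09A5.18. Whether these reads are siRNAs against linc-133 or fragments of linc-110 or T09A5.18 cannot be told apart in these tables, and reads shared by the 3 genes may have been counted up to 3 times. In ratio to the control IP, sense counts on linc-110 were 37.6-fold in susi-2 (33.6 to 42.3) and 58.2-fold in susi-3 (52.1 to 65.3), and those on T09A5.18 were 50.2-fold (44.1 to 57.3) and 76.0-fold (66.9 to 86.8).

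**Figure D2:**
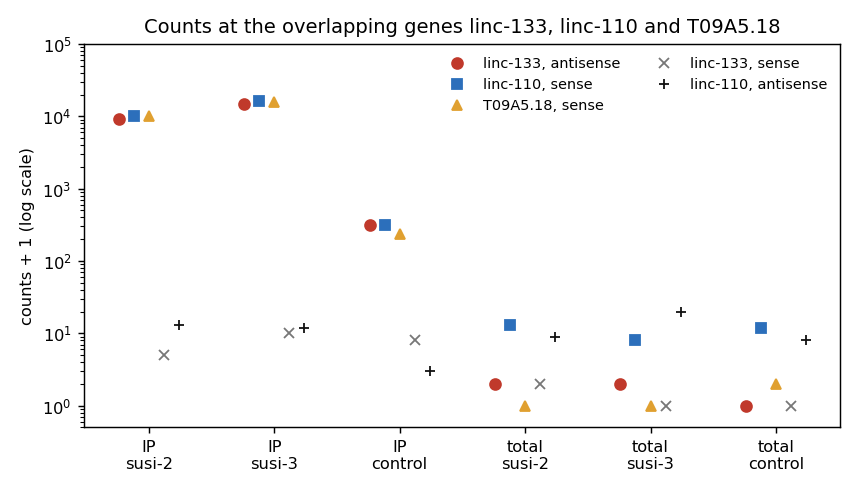
Points give counts + 1, on a log axis, at linc-133, linc-110 and T09A5.18 by strand in each library. The antisense counts of linc-133 and the sense counts of linc-110 and T09A5.18 lie between 9130 and 10089 in the susi-2 IP and between 15015 and 16112 in the susi-3 IP, while the other strand stays at 12 or fewer counts in all IPs.

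Without linc-133 the 2 mutant IPs parted. The other 168 members had 4772 antisense counts in the susi-2 IP and 2508 in the control IP, or 2.24-fold (2.14 to 2.36), which lies near the 1.97-fold of the antisense counts of all genes. In the susi-3 IP they had 1478, or 0.667 of the control share (0.625 to 0.711), against 0.912 for all genes. TMM scaling placed its zero at a log2 ratio of 1.09 for the susi-2 IP and -0.46 for the susi-3 IP, so the bulk of genes parted the same way. In total RNA the ratios without linc-133 were 0.319 and 0.639, as with it.

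Sense counts on the class followed the same locus. They were 11583 in the susi-2 IP, 17405 in the susi-3 IP and 1248 in the control IP, of which linc-110 held 86.3%, 92.6% and 25.1%. Without linc-110 the sense share was 2.01-fold that of the control IP in susi-2 (1.85 to 2.18) and 1.56-fold in susi-3 (1.44 to 1.70), in place of 10.9-fold and 15.8-fold with it. Without linc-89 as well it was 1.34-fold in susi-2 (1.23 to 1.47) and 0.829 of the control in susi-3 (0.749 to 0.918), so the susi-3 direction rests on these members. By mean CPM over the 6 libraries the next member on the sense strand was linc-89 (C04C3.15), with 560 in the susi-2 IP, 631 in the susi-3 IP and 32 in the control IP, and 4, 4 and 1 in total RNA. Its share in the mutant IPs was 20.6-fold (14.5 to 30.5) and 22.3-fold (15.6 to 32.9) that in the control IP, while its antisense counts were 10, 9 and 22. The protein-coding gene C04C3.7, which overlaps linc-89 in RefSeq, had 15, 2 and 7 sense counts in the same IPs. In total RNA the class had 1487 sense counts in susi-2, 1521 in susi-3 and 2350 in the control, 0.635 (0.595 to 0.678) and 0.691 (0.648 to 0.738) of the control share.

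Gene by gene, antisense counts were set against the control as log2((CPM + 1)/(CPM + 1)) where a gene had at least 50 over the 2 libraries, and values of 1 or more and of -1 or less were taken as 2-fold differences, a rule of size with no test behind it. In total RNA of susi-2, 25 members passed the minimum. Of these 2 were at least 2-fold higher, where 3.94% of the 5362 genes tested were, and 13 were at least 2-fold lower, where 25.0% of all genes were. Their median log2 ratio was -1.01, and that of all genes -0.60. In susi-3, 1 of 28 was at least 2-fold higher (5.48% of 5460 genes) and 5 were lower (18.5%), with a median of -0.37 against -0.56 over all genes. Since the bulk of antisense counts was lower in both mutants, single members are best read beside these medians. TMM scaling placed its zero at -0.70 for susi-2 and -0.63 for susi-3.

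The member with most counts in total RNA, linc-29 (Y73B6BL.269), had 3679 antisense counts in susi-2, 10100 in susi-3 and 17496 in the control. Both mutants were below the control and susi-2 was the lower of them. The ratio was 0.211 in susi-2 (0.204 to 0.219) and 0.617 in susi-3 (0.602 to 0.632), a log2 ratio of -2.24 and -0.70, so that susi-3 lay close to the all-gene median. Nearly all counts on this gene were antisense, with at most 4 sense counts in any library, and no other RefSeq gene overlaps it. Leaving linc-29 out as well as linc-133 brought the ratio of the class in total RNA of susi-2 to 0.506 (0.489 to 0.523), beside the 0.505 of protein-coding genes, and in susi-3 to 0.678 (0.657 to 0.700) beside 0.676. The class stayed below the antisense counts of all genes, at 0.676 in susi-2 and 0.769 in susi-3. Transposons had 0.401 and 0.656, and the ncRNA class 0.853 and 0.958.

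Other well covered members were also low in susi-2. Antisense counts on linc-11 (Y49F6C.11) were 222 in susi-2, 552 in susi-3 and 1117 in the control, a ratio of 0.200 (0.172 to 0.231) and 0.528 (0.476 to 0.585). For linc-6 (F52D2.13) they were 808, 1113 and 2700, a ratio of 0.300 (0.277 to 0.325) and 0.440 (0.410 to 0.472). For linc-7 (T22E6.2), with 679, 1128 and 1609, the ratios were 0.424 (0.387 to 0.464) and 0.749 (0.693 to 0.808), and in susi-3 the direction turns with TMM scaling (log2 ratio 0.21). The control was the highest of the 3 total libraries for all 3 genes. Likewise linc-63 (T03F1.13) had 473, 532 and 964 antisense counts in total RNA of susi-2, susi-3 and the control. With TMM scaling its ratios were 0.798 in susi-2 and 0.910 in susi-3. That of linc-7 in susi-2 was 0.686, and all of these were short of 2-fold.

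The 5 members at least 2-fold lower in total RNA of both mutants, among 24 tested in both, were linc-6, linc-30, linc-31, linc-32 and linc-99, where 8.42% of the 5108 genes tested in both were. Both mutants share the control library, so the 2 comparisons are not independent. Antisense counts on linc-30 (Y20F4.10) were 253 in susi-2, 273 in susi-3 and 741 in the control, and on linc-31 (D1014.12) 209, 300 and 718. On linc-99 (K08E3.14) they were 14, 13 and 86, with none in any IP and no sense count in any library, and on linc-32 (ZK6.12) 8, 17 and 55. Both passed the minimum mainly through the control, where they are high, so the minimum itself leaned their calls towards lower. For linc-32 in susi-2, any gene with its 8 counts that passes is called lower. With TMM scaling 6 members were at least 2-fold lower in susi-2 (7.98% of all genes), which were linc-6, linc-11, linc-29, linc-31, linc-32 and linc-99, and linc-99 alone was in susi-3 (3.88%). With it 3 were at least 2-fold higher in susi-2 (9.14%), which were linc-169, linc-42 and linc-22, and linc-169 alone was in susi-3 (11.0%).

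The member at least 2-fold higher in total RNA of both mutants was linc-169 (F43E2.13), where 1.72% of genes tested in both were. It had 1243 antisense counts in susi-2, 1016 in susi-3 and 477 in the control, or 2.62-fold (2.35 to 2.91) and 2.28-fold (2.04 to 2.54). In the IPs it had 1478 in susi-2, 252 in susi-3 and 413 in the control, so the susi-2 IP was 4.22-fold (3.78 to 4.72) and the susi-3 IP 0.690 of the control (0.588 to 0.809), and with TMM scaling 1.98-fold and 0.948, both short of 2-fold. In RefSeq linc-169 overlaps mtch-1, which encodes a mitochondrial carrier homolog, and a pseudogene, F43E2.12. Sense counts on mtch-1 were 1533 in susi-2, 1507 in susi-3 and 831 in the control for total RNA, and 1591, 476 and 755 for the IPs. On the CPM scale, mtch-1 and linc-169 put the 6 libraries in the same order except for susi-2 and susi-3 total RNA. How many reads the 2 genes share was not tested. Also at least 2-fold higher in susi-2 was linc-42 (R10F2.8), with 51 antisense counts in susi-2, 24 in susi-3 and 15 in the control, a ratio of 3.41 in susi-2 (1.89 to 6.54). On linc-4 (F13H8.15) they were 24, 37 and 25, and its susi-3 ratio of 1.58 had an interval that includes 1 (0.926 to 2.74).

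**Figure D3:**
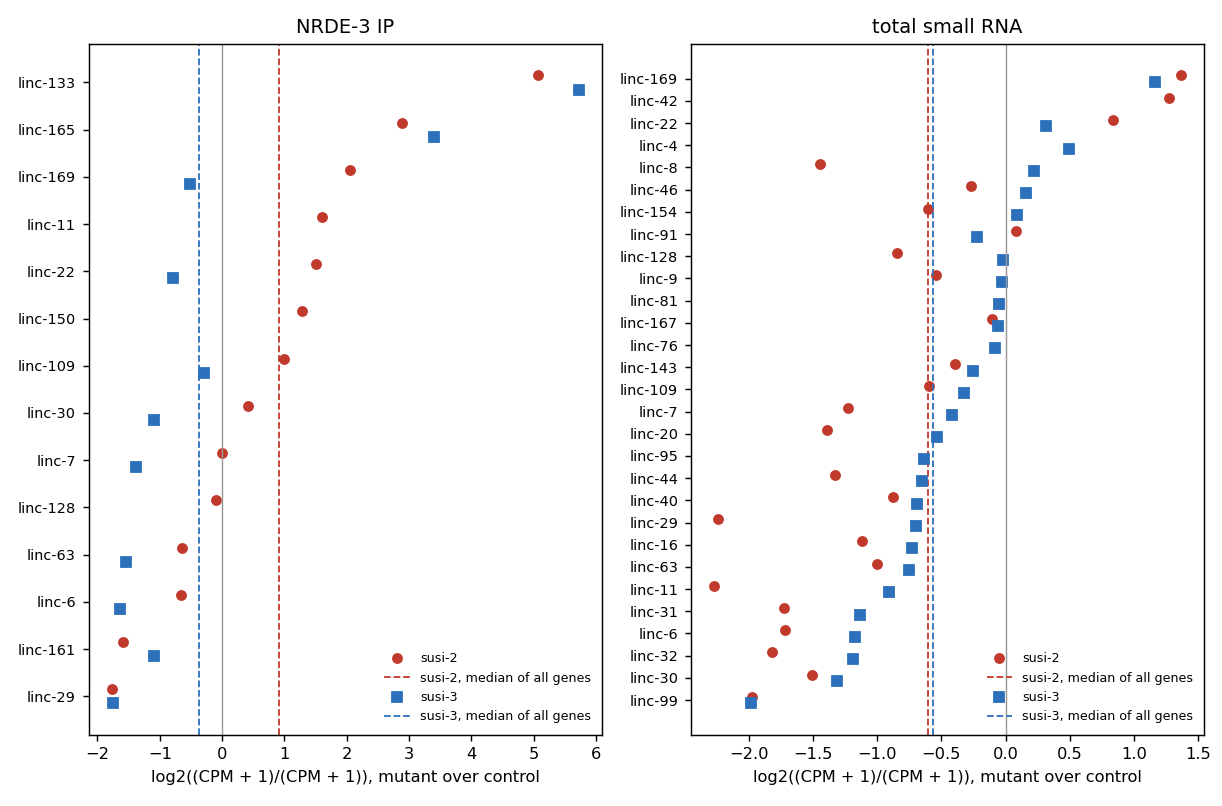
Each point is the log2((CPM + 1)/(CPM + 1)) of antisense counts, mutant over control, for a lincRNA gene with at least 50 counts over the 2 libraries, for the IPs (left) and total small RNA (right). Dashed lines mark the median of all genes tested. On this scale linc-169 is highest in total RNA of both mutants, and in the IPs linc-133 stands at 5.07 and 5.72, above every other member.

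Few members reached the minimum in the IPs. In the susi-2 IP 14 did, of which 6 were at least 2-fold higher, where 45.8% of the 4436 genes tested were, and 2 were lower, where 5.34% were. The median was 0.71 against 0.92 for all genes, so the count of higher members lay near the background. With TMM scaling 2 were higher (16.2% of all genes) and 4 lower (17.7%). In the susi-3 IP 11 did, of which 2 were at least 2-fold higher (11.8% of 2823 genes) and 6 were lower (23.0%), with a median of -1.10 against -0.37. With TMM scaling 2 were higher (15.8%) and 4 lower (10.5%). The higher members under both scalings, linc-133 and linc-165, were also higher in susi-2, as were 10.7% of the genes tested in both. For linc-165 the call was fixed in advance under either scaling. With 0 counts in the control IP, any gene that reaches the minimum is called higher. The gene linc-165 (Y69F12A.4) had 58 antisense counts in the susi-2 IP, 91 in the susi-3 IP and 0 in the control IP, at least 22.8-fold and at least 34.3-fold higher with 0 taken at 3 counts. In total RNA it had 1, 0 and 0, and no RefSeq gene overlaps it. Like linc-133 it was thus seen in the mutant IPs and hardly in total RNA.

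In the opposite direction, linc-29 and linc-161 were at least 2-fold lower in both mutant IPs, where 7.75% of the 2775 genes tested in both were. Antisense counts on linc-29 were 57 in the susi-2 IP, 60 in the susi-3 IP and 255 in the control IP, 0.264 (0.194 to 0.352) and 0.266 (0.197 to 0.354) of the control share. On linc-161 (Y75B8A.60) they were 47, 73 and 189, or 0.293 (0.208 to 0.405) and 0.437 (0.329 to 0.575), and with TMM scaling its susi-3 ratio was 0.600, short of 2-fold. The susi-3 IP was also low for linc-6, with 8 counts against 51 in the control IP, for linc-7, with 31 against 109, for linc-63, with 29 against 116, and for linc-30, with 16 against 51, the last of which has a log2 ratio of -0.76 with TMM scaling. Control counts alone took linc-6 and linc-30 past the minimum. For linc-6 the call was fixed, since any gene with 8 counts in the susi-3 IP that passes is called lower. For linc-22 (F47E1.18) the mutants parted, with 1902 antisense counts in the susi-2 IP, 400 in the susi-3 IP and 786 in the control IP, so that susi-2 was 2.85-fold (2.62 to 3.10) and susi-3 0.576 of the control (0.509 to 0.650). With TMM scaling these were 1.34 and 0.790, both under a 2-fold difference. The snoRNA gene F47E1.19, which overlaps linc-22 in RefSeq, had 154, 17 and 57 antisense counts in the same IPs. The difference between the mutants was not tested.

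**Figure D4:**
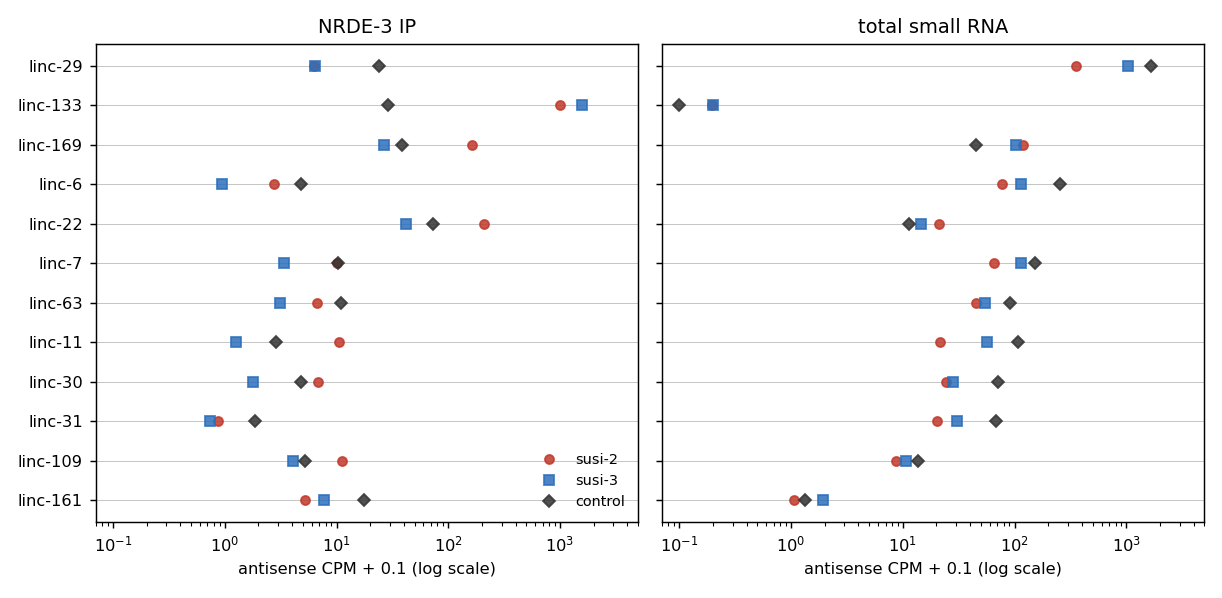
Antisense CPM + 0.1, on a log axis, of the 12 lincRNA genes with the highest mean over the 6 libraries, not corrected for length, in the IPs (left) and in total small RNA (right). In total RNA the control lies to the right of both mutants for linc-29, linc-6, linc-7, linc-63, linc-11, linc-30, linc-31 and linc-109. It lies to their left for linc-169, linc-22 and linc-133, the last with at most 1 count.

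Each IP was also compared with its own genotype's total small RNA. For the class without linc-133, the IP share was 0.624 of the total share in susi-2 (0.603 to 0.647), 0.0926 in susi-3 (0.0878 to 0.0977) and 0.0888 in the control (0.0852 to 0.0925). The antisense counts of all genes had 1.32, 0.538 and 0.454, protein-coding genes 1.10, 0.456 and 0.318, transposons 0.199, 0.0638 and 0.0778, and the ncRNA class 0.228, 0.157 and 0.273. Without linc-29 as well the class had 1.06, 0.229 and 0.218, so its low values in susi-3 and the control rest in large part on that gene.

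Of the members with enough counts, 5 of 22 in susi-2 were at least 2-fold higher in the IP (31.4% of 5574 genes) and 10 were lower (31.7%). In susi-3 it was 4 of 23 higher (15.0% of 4219 genes) and 19 lower (65.8%), and in the control 3 of 25 higher (11.9% of 5281 genes) and 20 lower (70.8%). The medians were -0.96, -2.48 and -2.57, against -0.09, -1.72 and -1.82 for all genes. With TMM scaling 5 were higher (33.2% of all genes) and 10 lower (29.3%) in susi-2, 4 higher (30.3%) and 12 lower (32.8%) in susi-3, and 5 higher (27.2%) and 12 lower (24.5%) in the control. Members higher in the IP of all 3 genotypes were linc-133, linc-22 and linc-161. The share of all genes higher in all 3 was not counted, so these members are named without a background. For linc-133, with 1, 1 and 0 counts in total RNA of susi-2, susi-3 and the control, the call followed from passing the minimum in every genotype. The same holds for linc-161 in susi-2, with 10 counts in total RNA.

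For linc-22 the IP held 1902 antisense counts and total RNA 220 in susi-2, 400 and 141 in susi-3, and 786 and 119 in the control, or 9.92-fold (8.63 to 11.5), 2.94-fold (2.42 to 3.58) and 6.46-fold (5.32 to 7.90). TMM scaling gave 11.2, 13.0 and 32.0, which changes the order of the genotypes. For linc-161 the IP held 47 and total RNA 10 in susi-2, 73 and 18 in susi-3, and 189 and 13 in the control, or 5.40-fold (2.69 to 11.97), 4.20-fold (2.48 to 7.47) and 14.2-fold (8.11 to 27.2), and with TMM scaling 6.08, 18.6 and 70.4. At the other end was linc-29, with IP shares of 0.0178 of the total share in susi-2 (0.0134 to 0.0231), 0.00615 in susi-3 (0.00469 to 0.00792) and 0.0142 in the control (0.0125 to 0.0161), or 0.0200, 0.0272 and 0.0706 with TMM scaling. For linc-6 these were 0.0341, 0.00744 and 0.0185, and for linc-31 0.0384, 0.0207 and 0.0259. These 3 genes were lower in the IP than in total RNA of every genotype under both scalings. The values hold no pull-down without the tag, so RNA bound by NRDE-3 and RNA carried over cannot be told apart.

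Strand also set the members apart. Over the class, antisense counts made up 54.5% of both strands in the susi-2 IP, 48.7% in the susi-3 IP and 69.3% in the control IP, and 85.5%, 91.6% and 92.2% in total RNA of susi-2, susi-3 and the control. The mutant IP values rest on linc-133 and linc-110: without linc-133 they were 29.2%, 7.83% and 66.9%, and without both genes 75.0%, 53.3% and 73.0%. Of the members, 12 had at least 20 counts over both strands in every library. On linc-29 and linc-63 antisense counts were at least 95.2% in each library. On linc-109 (W09D10.7) both strands were nearly equal throughout, with antisense counts at 54.0%, 58.5% and 53.4% in the IPs of susi-2, susi-3 and the control and 50.8%, 50.5% and 50.7% in total RNA. On linc-30 they ranged from 43.2% to 61.6%.

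The strand of linc-161 differed between the kinds of library in every genotype. Antisense counts were 94.0% in the susi-2 IP, 98.6% in the susi-3 IP and 99.5% in the control IP, against 27.0%, 34.6% and 30.2% in total RNA. Sense counts were 3, 1 and 1 in the IPs and 27, 34 and 30 in total RNA. On linc-8 (F59H5.6) the order was the reverse in susi-3 and the control, with 16.7% and 7.14% in the IPs and 73.1% and 76.9% in total RNA. In susi-2 the values lay closer, at 21.7% in the IP and 32.0% in total RNA, which had 31 antisense counts against 103 in the control. The IP values rest on few counts, with 5, 6 and 2 antisense and 18, 30 and 26 sense in susi-2, susi-3 and the control.

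**Figure D5:**
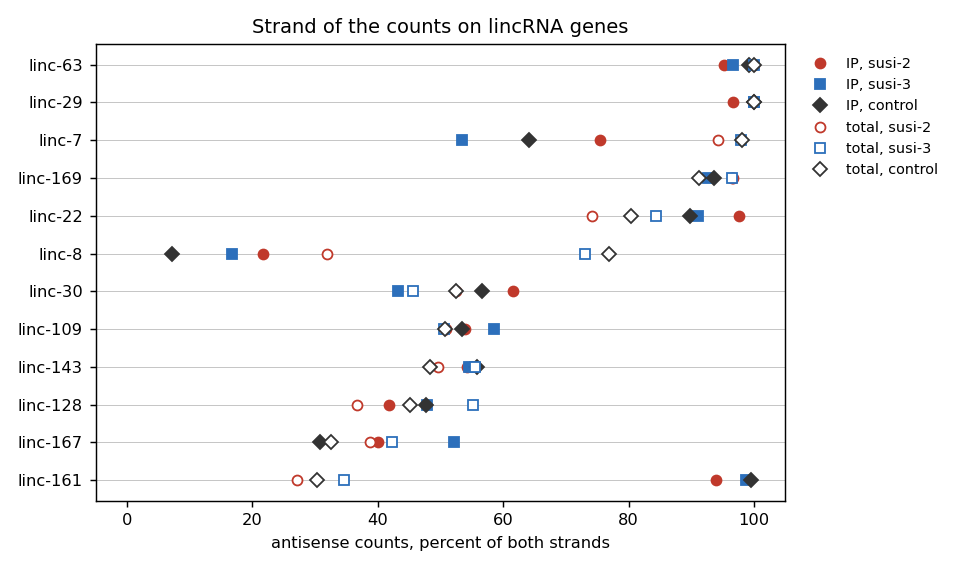
Antisense counts as a percent of both strands for the 12 lincRNA genes with at least 20 counts in each library, with filled symbols for IPs and open symbols for total small RNA. On linc-161 the IPs lie at 94.0% or more and total RNA at 34.6% or less, and on linc-109 all libraries lie between 50.5% and 58.5%.

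Members with and without an overlapping gene were also summed apart. The 65 members that overlap another RefSeq gene had 12953 antisense counts in the susi-2 IP, 15921 in the susi-3 IP and 1758 in the control IP, and without linc-133 and linc-110 they had 3811, 895 and 1445. The 104 that overlap none had 949, 572 and 1061, so the susi-2 IP was 1.05-fold the control (0.965 to 1.15) and the susi-3 IP 0.610 (0.550 to 0.676). For the overlapping members without linc-133 and linc-110 these were 3.11-fold (2.93 to 3.31) and 0.701 (0.644 to 0.762). The antisense counts of all genes stood at 1.97-fold in the susi-2 IP and 0.912 in the susi-3 IP. Beside these, the members that overlap none lay below the bulk in both mutant IPs. Of the 3811 counts, 1902 were on linc-22 and 1478 on linc-169, so the susi-2 value rests on these members, and in susi-3 both sums were below the control. In ratio to total RNA, the IP share of the overlapping members without linc-133 and linc-110 was 1.52 in susi-2, 0.271 in susi-3 and 0.275 in the control. For the 104 members that overlap none it was 0.185, 0.0453 and 0.0462, and without linc-29 it was 0.462, 0.178 and 0.159.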

How the data were processed

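Whole L3 larvae gave 3 total small RNA libraries and 3 NRDE-3 IP libraries (anti-FLAG), each from 1 sample. Per the labels' protocols, RNA was treated with phosphatase and kinase and sized to 17 to 30 nt. The deposited values are raw counts of reads on the sense and antisense strand per transcript feature, per the file headers. Bowtie2 was used per the submitters' processing notes. Its settings, the handling of reads with several matches, the build and the annotation: not given in the sources used here.

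From the deposited counts, 56377 features were summed to 45510 genes (5 blank cells read as 0, and 3 features naming no gene, at most 122 counts per library, left out). The 169 members have 176 features. Shares are of all counts of both strands. Where no count was seen the upper limit was taken at 3 counts, 2.79e-05% to 3.29e-05% of a library. Shares have Clopper-Pearson and ratios exact conditional 95% intervals. No test was possible with 1 library per group. Named members are linc-133, the 8 with most antisense and 5 with most sense CPM, the 3 highest and 3 lowest ratios of each of 7 comparisons, and those at least 2-fold off in both mutants; linc-8, T09A5.18, C04C3.7, mtch-1 and F47E1.19 were picked after their values were seen. Members, lists and rules were chosen with earlier results of these data known. TMM factors came from edgeR 4.0.16 for each pair of libraries, and alternatives were TMM, another pseudocount (0.5 CPM), count minimum (20 or none), no rRNA in the denominator, both strands, and sums without single members. The calculations were tested on simulated data (Python 3.11.15, scipy 1.17.1).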

Additional observations from a re-analysis of the deposited data

Results flagged for a closer look

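Ratios of mutant to control that point opposite ways in total RNA and in the IPs were picked out, and the differences were not tested. The antisense share of the class was 5.81-fold that of the control in the susi-2 IP and 0.319 of it in susi-2 total RNA. The antisense counts of all genes also point opposite ways in susi-2, at 1.97 in the IP and 0.676 in total RNA, and those of protein-coding genes at 1.74 and 0.505. For the lincRNA class in susi-3 the ratio was 6.62-fold in the IP and 0.639 in total RNA, where leaving out linc-133 brings the IP value to 0.667. Antisense counts on linc-11 were 96 in the susi-2 IP and 30 in the control IP, a ratio of 3.77 that is 1.77 and short of 2-fold with TMM scaling, and 222 and 1117 in total RNA of susi-2 and the control, a ratio of 0.200.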

How the results depend on the processing

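No paired analysis was possible because each group has 1 library, and for the same reason no replicate could be left out. TMM scaling put the antisense ratio of the class at 0.517 in susi-2 and 0.987 in susi-3 total RNA, at 2.73 and 9.09 in their IPs, and at 2.05, 4.57 and 0.494 for IP over total in susi-2, susi-3 and the control. It put linc-133 at 16.3 and 75.0 in the susi-2 and susi-3 IPs. With it 6 and 1 members were at least 2-fold lower in total RNA of susi-2 and susi-3, 2 were higher and 4 lower in the susi-2 IP, 12 were lower in the susi-3 IP over total, and 5 were higher and 12 lower in that of the control. With no rRNA in the denominator the class ratios were 0.341, 0.626, 6.84, 7.85, 3.21, 2.01 and 0.160 in the same order, and those of linc-133 were 40.7 and 64.8. Over both strands the class was at 0.344 in susi-2 total RNA, 7.39 and 9.43 in the IPs, and 2.85, 1.94 and 0.133 for IP over total. Without linc-133 the IP ratios were 2.24 and 0.667, which turns the susi-3 direction, and IP over total was 0.624, 0.0926 and 0.0888, turned in susi-2 and susi-3. Sums without linc-133 and linc-29, and sense sums without linc-110 or without linc-110 and linc-89, were chosen after seeing the data. The first gave 0.506 and 0.678 in total RNA, 2.47 and 0.712 in the IPs, and 1.06, 0.229 and 0.218 for IP over total. That turned susi-3 both in the IP and in IP over total. The second gave sense ratios of 2.01 and 1.56 in the IPs and 1.24, 0.884 and 0.391 for IP over total, turned in susi-3 IP over total. The last gave 1.34 and 0.829 in the IPs and 0.804, 0.454 and 0.377 for IP over total, which turns the susi-3 IP and the IP over total of susi-2 and susi-3. A minimum of 20 counts gave 4 members higher in susi-3 total RNA, 12 in the susi-2 IP, and 9 and 5 in the IP over total of susi-2 and the control, and no minimum gave 4, 13, 13 and 6, with 10 higher and 30 lower in susi-3. The shares of all genes were not counted at these other minimums, so these counts of members have no background beside them. With a pseudocount of 0.5 CPM all 14 counts of members stayed within 1.5 times. Apart from the effect of leaving out members, the cause of these shifts was not tested. The depth limits 108 members, which had fewer than 10 antisense counts in each library.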
